A study of Daphnia magna with 24 samples.

Results

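Water fleas of the species Daphnia magna spent 24 h in water from the place where mine drainage enters the stream at Greenhorn Mine, California, and their RNA was compared with that of unexposed animals. The comparison rests on 6 of the 24 arrays in the series. They were chosen by the label of their exposed channel and make up 3 exposures with 2 dye-swap arrays each. The other 18 arrays hold water from upstream of the mine and from the positions downstream 1 and downstream 2, with 3 exposures and 6 arrays at each site. In all 4 groups the animals were genetically homogeneous adult females aged 14 to 16 days, kept at 23.5 °C, and 10 to 15 of them were pooled for an exposure. The unexposed animals stayed in COMBO, a defined freshwater medium, and share the strain and culture with the exposed ones. The series' design states that copper differed between the sites, without amounts in the sources used here. Each test against control therefore sets field water with all its solutes against COMBO, not copper alone. A single water source label covers all 3 entry exposures, so separate water collections are not shown.

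Daphnia magna is a filter-feeding freshwater crustacean that reproduces clonally, and adult females carry their embryos in a brood chamber. Drainage from sulphide ores is often acid and carries dissolved metals. Copper is an essential cofactor of enzymes such as cytochrome c oxidase and superoxide dismutase, and in excess it promotes oxidative damage. Animal cells bind surplus copper with metallothionein and glutathione. The array features carry only array IDs: 0 of 7680 were found in the RefSeq gene table of Daphnia magna, so no feature below has a gene name, sequence or known role, and the processes just described could not be followed by name.

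Every value is a log ratio of both dye channels, treated here as log2. No source used here states the base, and folds hold only for base 2. Positive values likely mean more RNA in exposed animals, because the submitters describe their design as field exposures against control, and the exposed RNA is in the second channel of each array. The deposited sign is not stated, so values are called positive or negative. The dye-swap partners correlated positively, with r = 0.745, 0.643 and 0.652 across features in exposures 1, 2 and 3, so the deposited arrays already run one way. A whole-animal ratio cannot tell a change of RNA per cell from a change in the number of cells of a type, embryos included.

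The entry arrays held 7144 to 7205 values each, with 6.18% to 6.98% missing. Their deposited medians lay between -0.0194 and 0.0039. With both arrays averaged, entry exposure 1 stood apart from the other exposures of the site. Its correlation across features was 0.396 with exposure 2 and 0.24 with exposure 3, while exposures 2 and 3 correlated at 0.568. Its distance from exposure 2 depended on the dye. With exposed RNA in Cy3, exposures 1 and 2 correlated at 0.547 and exposures 2 and 3 at 0.550. With exposed RNA in Cy5 these values were 0.320 and 0.667. Exposures 1 and 3 correlated at 0.224 with Cy3 and 0.373 with Cy5. Exposure 1 held 604 features below -1 and 77 above 1, against 376 and 165 in exposure 2 and 258 and 145 in exposure 3. Both of its arrays carried this excess, with 613 and 643 features below -1. The call counts against control and upstream and the shares by ID prefix are therefore also given without exposure 1. Most other results are given only with it.

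At the mine drainage entry, 405 of 7388 features tested changed against control (5.48%). Of these, 196 were positive (2.65% of those tested) and 209 negative (2.83%), at a Benjamini-Hochberg adjusted p under 0.05 in limma. This linear model moves each feature's own spread partly toward a value common to all features. All 12 exposures of the series entered this fit, and 1122 features had an unadjusted p under 0.05. The directions were similar in number and differed in size. The median was 0.85 among positive and -1.23 among negative features, and 43 positive but 7 negative features lay within 0.5 of 0. In exposure 3 alone these medians were 0.88 and -0.84, so negative features were not the larger there. The smallest called size was 0.23, while the 95% interval of the median feature's entry mean was ± 0.30. The call also depended on reproducibility. Of 304 features with a mean beyond 1 in size, 222 were called, with a median SD between exposures of 0.49, and 82 were not, with a median SD of 1.05. Of these 82, 62 were negative.

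**Figure D1:**
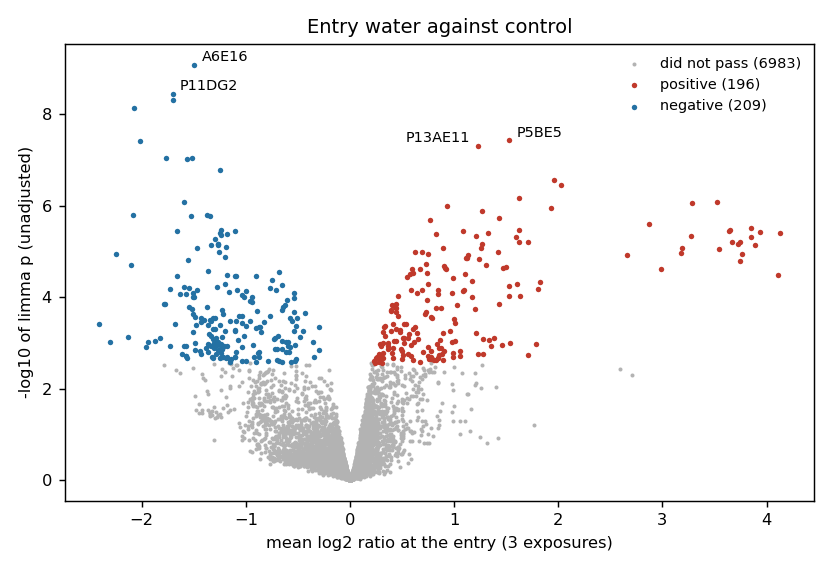
Mean log2 ratio of the 3 entry exposures (horizontal axis) against -log10 of the unadjusted limma p (vertical axis) for the 7388 features tested. Red points are the 196 positive and blue points the 209 negative features past the adjusted threshold, and a group of positive features lies beyond 3 with no negative counterpart.

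The count moved with the exposures used. Without exposure 1 it was 230 (122 positive and 108 negative), without exposure 2 it was 144 (84 and 60) and without exposure 3 it was 274 (122 and 152). With only the 3 entry exposures in the fit, no feature passed the adjusted threshold in limma, though 968 had an unadjusted p under 0.05. In the fit of all 12, the other sites share in the error estimate. The exposure left out each time gives a description of repeatability. Of 229 features called without exposure 1 and measured in it, 227 had the same sign there. Their median in exposure 1, turned to that sign, was 0.99, against a median size of 1.29 in the fit that left it out. For exposure 2 the sign was the same in 142 of 144 features, with a median of 1.33 against 1.30. For exposure 3 it was the same in 267 of 273, with 0.87 against 1.26. For background, 2696 of the 7204 tested features with all 3 values (37.4%) had one sign in every entry exposure. The labels do not say whether the exposures shared control RNA. Where they did, these same-sign counts and the tests against 0 hold none of the variation among controls.

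The same arrays that made the calls describe them further. In 387 of the 405, every measured entry array had one sign, with at least 5 arrays measured, which the call itself favours. Among all features tested this held in 1149 of 7388 (15.6%). Values on all 6 arrays were present for 379 of the 405, beside 6237 of the 7388 tested. The dye effect was small beside most calls. Taken as the distance of each dye-swap array from the mean of its pair and averaged over the exposures, it had a median size of 0.12 in called features, and it exceeded the size of the mean in 4 of them.

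The positive feature of lowest p with one sign on every array was P5BE5. Its log2 ratio was 1.35, 1.66 and 1.57 in entry exposures 1, 2 and 3. On single arrays it ranged from 1.31 to 1.76. The 3 exposures lay close together and both dye orientations gave like values. The mean was 1.53 ± 0.16 (SD, n = 3; limma adjusted p 4.8e-05). On the linear scale this is 2.89-fold.

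P13AE11 was the second positive feature by this rule. It stood at 1.12, 1.35 and 1.21 in exposures 1, 2 and 3, with a mean of 1.23 ± 0.12 (SD, n = 3; limma adjusted p 5.1e-05). Its arrays split by dye. With exposed RNA in Cy5 they gave 1.31, 1.58 and 1.47, and with exposed RNA in Cy3 they gave 0.92, 1.12 and 0.96. The Cy5 array was the higher in every exposure, and no array lay below 0.92.

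A6E16 was the negative feature of lowest p and had the lowest p of all features tested. It was at -1.65, -1.46 and -1.36 in exposures 1, 2 and 3, with arrays from -1.86 to -1.07. No array came near 0. The mean was -1.49 ± 0.15 (SD, n = 3; limma adjusted p 6e-06), a ratio 2.82-fold below the control if positive means more RNA in exposed animals. This p draws on the spread at all 4 sites. The SD of A6E16 was 0.027 upstream, 0.048 at downstream 1 and 0.076 at downstream 2, smaller than at the entry.

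P11DG2, the second negative feature, stood at -1.90, -1.81 and -1.39 in exposures 1, 2 and 3. Both arrays of exposure 3 gave -1.39, and the arrays of exposure 2 gave -1.43 and -2.18. Exposure 3 was therefore the weakest on both arrays, and exposure 2 had the widest gap between dyes. The mean was -1.70 ± 0.27 (SD, n = 3; limma adjusted p 1.2e-05). This p draws on the spread at all 4 sites. The SD of P11DG2 was 0.045 upstream, 0.052 at downstream 1 and 0.013 at downstream 2, smaller than at the entry. These 4 features kept their sign and stayed past the threshold without each entry exposure in turn, and lost the call in the fit of the entry alone (limma adjusted p 0.072, 0.072, 0.072 and 0.083).

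**Figure D2:**
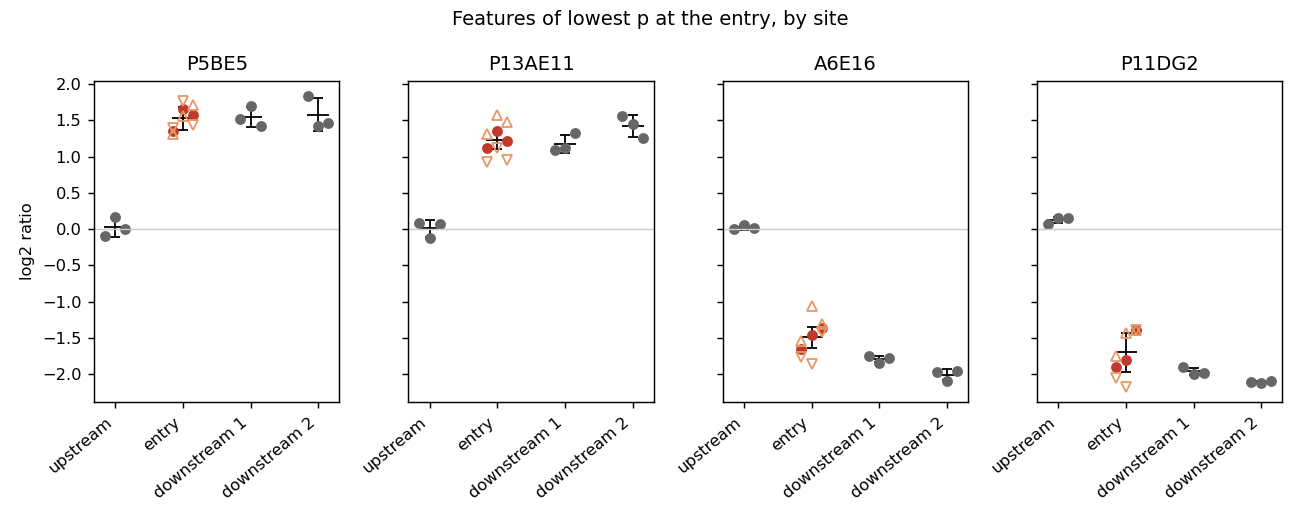
Log2 ratios of P5BE5, P13AE11, A6E16 and P11DG2 at the 4 sites. Filled points are exposures (red at the entry), black bars the mean and SD of 3 exposures, and open triangles the single entry arrays, pointing up for exposed RNA in Cy5 and down for Cy3. The upstream exposures lie between -0.13 and 0.17, and the exposures of the entry and both downstream sites lie far from 0.

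The largest changes formed a group of their own. Of the positive features called, 54 had a mean between 1 and 2, 4 between 2 and 3, and 19 above 3, from 3.18 to 4.13. Of the negative ones, 8 lay below -2 and 0 below -3. All 19 strongly positive features have IDs starting with P. They ran from 2.06 to 2.85 in exposure 1 (median 2.44), from 3.95 to 5.25 in exposure 2 (median 4.72) and from 3.16 to 4.41 in exposure 3 (median 3.96). In 19 of 19 exposure 1 was the lowest and exposure 2 the highest, so the exposures kept one order in the whole group. The median SD between exposures was 1.17. Whether some of these features carry the same transcript was not tested. They were picked out by their values, so their levels are a description only. In exposures 1, 2 and 3 their medians were 0.30, 0.17 and 0.34 upstream, 2.39, 3.60 and 3.74 at downstream 1, and 4.08, 2.80 and 3.51 at downstream 2. The group was thus not particular to the entry. Upstream, the highest value among the 19 was 0.98, 0.33 and 2.14 in exposures 1, 2 and 3, so not every member lay near 0 there.

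The exposures also differed in strength over the whole set of called features. The 196 positive features had medians of 0.68, 0.89 and 0.88 in exposures 1, 2 and 3. The 209 negative features had medians of -1.17, -1.48 and -0.84. Negative features were thus strongest in exposure 2 and weakest in exposure 3. Of 208 negative features with all 3 values, 152 were largest in size in exposure 2, 31 in exposure 1 and 25 in exposure 3. Of 194 such positive features, the numbers were 78, 45 and 71. In the upstream exposures the same positive features had medians from 0.04 to 0.15, and the negative ones from -0.04 to 0.35, where upstream exposure 2 gave the highest.

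**Figure D3:**
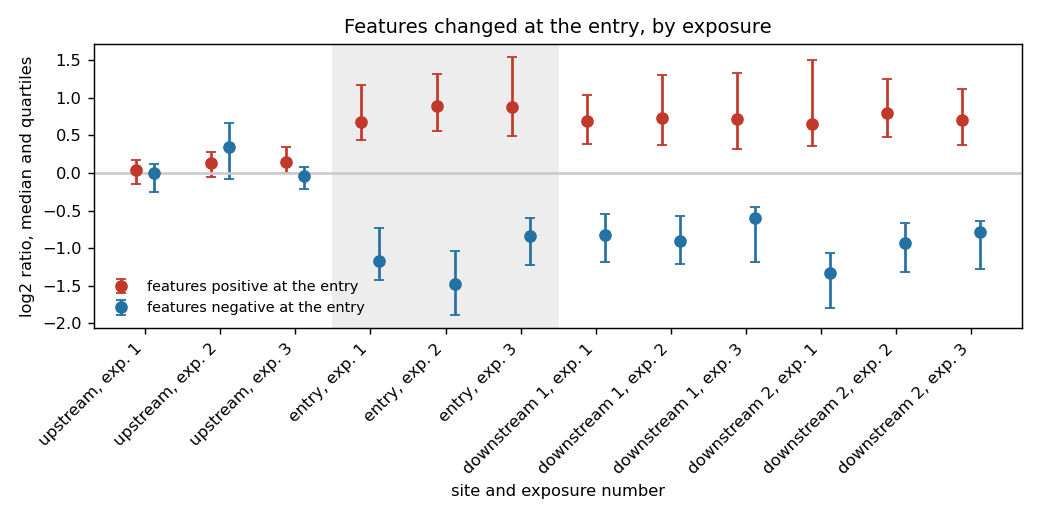
Median log2 ratio, with quartiles as bars, of the features called positive (red) and negative (blue) at the entry, in each of the 12 exposures. The shaded entry exposures chose the features. Upstream medians stay between -0.04 and 0.35, and downstream medians run from 0.65 to 0.80 for the red and from -1.34 to -0.60 for the blue points.

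A second pattern at the entry belonged to single exposures. In exposure 1, 361 features lay below -1 while both other exposures lay within 0.5 of 0, and 3 features did the opposite. The median of the 361 was -1.61 in exposure 1 and 0.12 and 0.18 in exposures 2 and 3. Both arrays of exposure 1 were negative in 340 of the 342 features measured on both, so the low values appeared in both dye orientations. Of the 361, 349 have IDs starting with A, a prefix that marks 2452 of the 7388 features tested. The rule that picked them, exposures far apart, all but bars a call, and 0 were called, beside 5.48% of all features. Within the A features, A4 and A7 held 109 each and A3 held 3. Outside the entry, the same features had medians of -1.41 in upstream exposure 2, -0.85 in downstream 1 exposure 1 and -0.68 in downstream 2 exposure 2, against 0.62 in downstream 2 exposure 1. Their low values therefore did not follow the site labels.

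Exposure 2 had 38 such low features and exposure 3 had 110. The 110 rested on fewer measurements. Both arrays of exposure 3 gave a value for 34 of them, and 74 were measured there on the array with exposed RNA in Cy3 alone, where the dye effect does not cancel. Of the 110, 78 have IDs starting with A and 48 of these are in A5. Their median was -1.46 in entry exposure 3, and 1.24 and 1.32 in upstream exposure 1 and downstream 2 exposure 1.

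**Figure D4:**
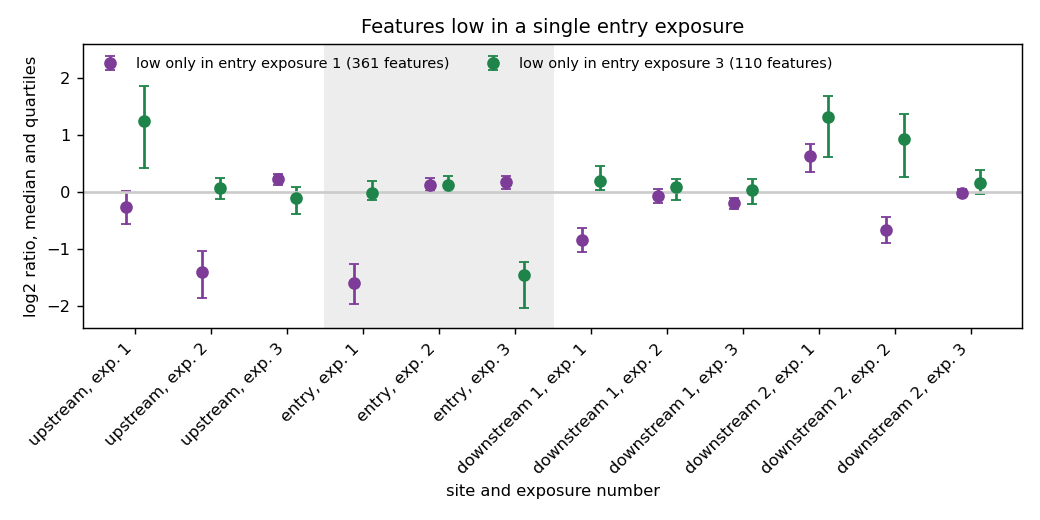
Median log2 ratio, with quartiles as bars, in each of the 12 exposures for the 361 features low in entry exposure 1 alone (purple) and the 110 low in entry exposure 3 alone (green). The shaded entry exposures chose the features. The purple points fall to -1.61 there and to -1.41 in upstream exposure 2.

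The 2 ID prefixes differed in how far the exposures spread. The median SD between entry exposures was 0.31 for A features and 0.15 for P features. Over exposures 2 and 3 alone it was 0.12 for A and 0.10 for P features, whereas over exposures 1 and 3 it was 0.30 and 0.13. Called features made up 3.22% of A features (79 of 2452) and 6.60% of P features (326 of 4936), beside 5.48% of all. The part of the spread in this difference was not tested. Without exposure 1 the shares were 2.28% of A (56 features) and 3.53% of P features (174), beside 3.11% of all. The A calls held 27 positive and 52 negative features, and P calls 169 and 157. Without the block A6, described next, the A calls were 19 positive and 25 negative, and the balance of signs was not tested.

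The IDs fall into 20 blocks of 384 features by prefix and number, and the block A6 departed from the other A blocks. It held 35 called features of 380 tested (9.21%), 8 positive and 27 negative, while the other 6 A blocks had 0.82% to 4.28% called. The 27 negative features of A6 had medians of -1.29, -1.46 and -1.26 in exposures 1, 2 and 3. The call itself favours such likeness between the exposures. The block as a whole was less even, as it also held 43 of the 361 features low in exposure 1 alone. The 8 positive features called in A6 had medians of 0.63, 1.11 and 0.83. Among the 13 P blocks the share ran from 4.69% in P2 to 10.2% in P10. No source used here says what the blocks stand for, and this split was looked at after the calls were known and was not tested.

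**Figure D5:**
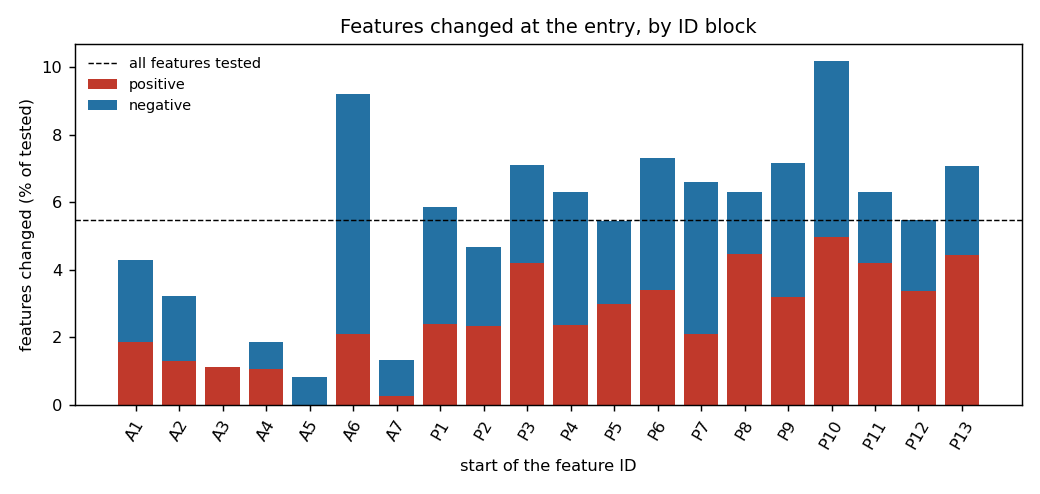
Share of tested features called at the entry (vertical axis, percent) for each of the 20 ID blocks, split into positive (red) and negative (blue). The dashed line marks the 5.48% of all features. A6 stands at 9.21% among A blocks that otherwise reach 4.28%, and P10 is highest at 10.2%.

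The entry was then set against the other sites in the same fit, to ask where it differed from them. These contrasts use the same entry arrays as the test against control, and control RNA may be shared. Entry minus upstream passed in 98 features (1.33% of 7388), 51 positive and 47 negative. P5BE5 had the lowest p among positive differences. Its upstream exposures 1, 2 and 3 gave -0.09, 0.17 and 0.00, apart from all entry exposures, and the difference was 1.50 (SE 0.14, limma adjusted p 0.0011). The naming rule required this separation. It held in all 98 features called and in 1003 of the 7388 tested (13.6%). A6E16 led the negative differences. It stood at 0.00, 0.05 and 0.01 in upstream exposures 1, 2 and 3, and the difference was -1.51 (SE 0.09, limma adjusted p 0.00012). The differences of P13AE11 and P11DG2 from upstream were 1.22 (SE 0.12, limma adjusted p 0.0012) and -1.83 (SE 0.12, limma adjusted p 0.00012). The count fell to 64, 20 and 41 without entry exposure 1, 2 and 3, and to 15, 14 and 52 without upstream exposure 1, 2 and 3. With arrays scaled to one spread it was 58, of which 32.8% were positive against 52.0% here, and A6E16 (-1.58, limma adjusted p 0.073) and P11DG2 (-1.90, limma adjusted p 0.051) missed the threshold. With only both sites fitted the count was 7, and P13AE11 missed the threshold (1.22, limma adjusted p 0.056).

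Entry minus downstream 1 and entry minus downstream 2 each passed in 0 features (0%), with 41 and 253 at an unadjusted p under 0.05 in limma. With both sites fitted alone and the exposure number as a block, entry minus downstream 1 had 0 again, and 343 features at an unadjusted p under 0.05. For the median feature the 95% interval of such a difference was ± 0.42, before any adjustment for the number of tests. Passing the adjusted threshold took more, so differences larger than this may also be present without a call. A6E16 had the lowest p among positive differences in both. It stood at -1.75, -1.84 and -1.79 in downstream 1 exposures 1, 2 and 3 and at -1.98, -2.10 and -1.96 in those of downstream 2. Every entry exposure of A6E16 lay nearer to 0 than every downstream exposure. Among all features tested, 400 (5.41%) had no overlap between entry and downstream 1 exposures, and 558 (7.55%) none between entry and downstream 2. The differences of A6E16 were 0.30 (95% interval 0.09 to 0.51, limma adjusted p 1) and 0.52 (0.31 to 0.73, limma adjusted p 0.81), with intervals not adjusted for the number of tests. P11AF9 had the lowest p among negative differences from downstream 1. It was at -1.78, -1.90 and -1.63 in entry exposures 1, 2 and 3 and at -0.82, -1.07 and -1.07 in those of downstream 1, with no overlap. The difference was -0.78 (-1.18 to -0.38, limma adjusted p 1). A5I7 had the lowest p among negative differences from downstream 2. It was at -0.32, -0.49 and -0.95 at the entry and at 2.04, 1.61 and 0.52 at downstream 2, a difference of -1.98 (-2.74 to -1.22, limma adjusted p 0.81). Without downstream 2 exposure 3 the same feature passed (-2.41, limma adjusted p 0.023). Its entry value was measured unevenly, with -0.03 and -1.87 on the arrays of exposure 3.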

How the data were processed

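RNA of exposed and unexposed animals was labelled with Cy3 or Cy5 and hybridised to 2-colour arrays, per the labels. The deposited values are log ratios per feature, taken as log2. No source used here gives their base and sign, the scanner, the background correction or the normalization by the authors. No intensities were used, so the number of exposures sets the precision.

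Arrays were centred on their median and both arrays of an exposure averaged, or the single one measured. Features with values in at least 2 exposures at every site were tested, 7388 of 7680. One limma 3.58.1 fit (R 4.3.3; lmFit, eBayes; 8 residual and 1.79 prior degrees of freedom) held all 12 exposures unpaired, with site means tested against 0 or by contrasts. The labels do not say whether exposures were separate cultures, so p-values reflect only how these exposures varied, possibly for technical reasons. Deviations from the site means correlated between entry and downstream 1 exposures of the same number (r = 0.525, 0.518 and 0.404), so the numbers pair them by the data, not the labels. For exposures 1, 2 and 3 the r values were -0.115, -0.600 and 0.547 with upstream, and -0.455, -0.387 and 0.446 with downstream 2.

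Features are named by rule: the 2 of lowest p in each direction with one sign on all arrays, and 1 per direction in each contrast. In a contrast with called features, the named ones had to be called and show no overlap of the exposures. Where none was called, the feature of lowest p in each direction was taken. Members and lists were chosen with earlier results of these data known. Simulated data of 7388 features were tested for entry against control. There, 38.8%, 67.2% and 89.4% of true changes of 0.5, 1 and 2 were called, beside 6 false calls. These numbers describe the simulated data only. In the real data, deviations correlated between some sites, and groups of features were low together in single exposures. The share of false calls among the real calls was not tested. Figures used matplotlib 3.10.9 in Python 3.11.15.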

Additional observations from a re-analysis of the deposited data

Results flagged for a closer look

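The entry and upstream water were both measured against control, and a contrast tested the difference between them. It passed limma's adjusted threshold in 98 features, a count that was 7 with both sites fitted alone, 24 with a variance trend and robust prior, and 372 in the fit of all 24 arrays. Of the features named above, P5BE5 differed by 1.50, P13AE11 by 1.22, A6E16 by -1.51, P11DG2 by -1.83 and P11AF9 by -1.46 (limma adjusted p 0.0011, 0.0012, 0.00012, 0.00012 and 0.0066). P11AF9 stood at -0.31 ± 0.19 upstream and -1.77 ± 0.14 at the entry (SD, n = 3). P11AF9 missed the threshold with both sites alone (limma adjusted p 0.056), with the variance trend (0.052) and with exposed RNA labelled with Cy3 only (-1.12, limma adjusted p 0.11). A5I7 did not pass (-0.52, limma adjusted p 0.75).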

How the results depend on the processing

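For entry against control, 8 of 15 alternatives left the count within 1.5 times 405. Array weights gave 726, a fit of single arrays (all 24) gave 699, and Cy5-labelled exposed RNA alone gave 609. The count was 227 with a variance trend and a robust prior, 0 with the entry alone, and 144 to 274 with 1 entry exposure left out. A replicate block by exposure number gave 425, of which 359 were among the 405. For entry minus upstream, the count of 98 became 372 in the fit of 24 arrays, 62 with weights, 58 with scaled arrays, 52 for Cy3-labelled exposed RNA alone, 24 with the variance trend, 7 with both sites alone and 14 to 64 with 1 exposure left out. The replicate block gave 92 there, and 0 for both contrasts with downstream sites, and changed none of the calls of named features that were rerun with it, for entry against control and for all 3 contrasts. Entry minus downstream 2 gave 0 to 1 with 1 exposure left out. No named value changed sign under any alternative run. The causes of these shifts were not tested. The fit of the entry alone has fewer exposures to estimate the spread, and the part of this in its count was not tested either.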
